A study of Mus musculus with 4 samples.

Results

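This account follows 40 genes of cholesterol and fatty acid synthesis in basal cells of the mouse nose. They were taken by symbol from a fixed list, and all 40 were found among the 23281 genes of the deposited table. RNA was sequenced from 3 cultures of horizontal basal cells (HBCs), grown from wild-type mice to passage 3. In the tissue, HBCs are the quiescent stem cells of the olfactory epithelium. The comparison group was 1 library of respiratory basal cells (RBCs), the stem cells of the adjoining airway lining. These were microdissected from mice with the genotype KRT5-CreER;Ai9-fl(stop)TdTomato and sorted as TdTomato+, a red reporter that is switched on where the keratin 5 promoter drives the recombinase. No sort is given for the cultures. The labels give no age, sex or inducing treatment, and do not say whether the 3 cultures came from separate animals, so p-values measure only the spread between these libraries, which may be technical. Tissue of origin, growth in culture, strain and sorting all differ between the groups and cannot be told apart.

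Cells make cholesterol from acetyl-CoA by way of mevalonate, squalene and lanosterol, and make fatty acids from the same precursor through malonyl-CoA. The transcription factors SREBP1 and SREBP2, encoded by Srebf1 and Srebf2, drive most of these genes: the chaperone SCAP carries them to the Golgi for activation when membrane sterol is low, and the INSIG proteins hold SCAP back when sterol is plentiful. New fatty acids are then desaturated by SCD and FADS enzymes and lengthened by ELOVL enzymes. Epithelial cells use the products for membranes and, in stratified epithelia, for barrier lipids.

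Levels are given as depth-scaled FPKM, that is, fragments per kilobase of transcript divided by 1 factor per library, a measure that allows comparison between genes. A mean ± SD is always over the 3 HBC libraries (n = 3), whereas RBC values come from 1 library and have no replicate. Genes whose HBC mean and RBC level averaged at least 1 were tested, and a gene was called when limma's Benjamini-Hochberg adjusted p over all 16440 tested genes was under 0.05 and the change at least 2-fold. Only the HBC libraries give an estimate of the spread, and the test takes the RBC library to vary alike. A permutation of 4 libraries cannot reach a one-sided p below 0.25. Log2 changes are RBC minus HBC on the log2(value + 1) scale, which understates the change of low genes, and folds are ratios of scaled FPKM.

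Column sums of the table ran from 8377232 to 10855996 over the HBC libraries, with 9877606 for the RBC library, and depth in reads is unknown. The 6 basal markers were present in all 4 libraries, but 4 were called higher in RBCs: Krt14 by 4.49-fold, Krt15 by 13.6-fold, Trp63 by 7.88-fold and Itgb4 by 2.07-fold. Krt5 (18625 ± 369 and 26488) and Itga6 (1284 ± 21.4 and 844) were not called. The RBC library also held transcripts of other cells: 8 of 9 tested leukocyte markers and 8 of 8 fibroblast markers were called higher there. Their summed FPKM was 41.5 to 48.7 in HBC libraries against 16004 in RBCs for leukocytes and 47.7 to 68.1 against 7756 for fibroblasts. Most of the leukocyte sum in RBCs was Lyz2 (14770), with Cd74 at 1001 and Ptprc at 10.5. Most of the fibroblast sum was Dcn (6902), with Col1a1 at 361 and Col3a1 at 32.4. Of 7 endothelial markers, 5 were called higher in RBCs and 1, Egfl7, higher in HBCs (109 ± 27.1 against 19.3). Their sums were 87.8 to 140 in HBCs and 78.0 in RBCs. Of 7 ciliated, 5 sustentacular and 7 olfactory neuron markers all were called higher in RBCs, with sums of 184 to 218 against 5313, 41283 to 43655 against 224954 and 133 to 165 against 5347. Cbr2 made up most of the sustentacular sum in every library (42609 ± 1210 in HBCs and 213438 in RBCs). In the HBC libraries Cyp2g1 and Cyp1a2 were at 0, and Sec14l3 and Ermn reached at most 0.494 and 0.562. Of 7 gland and secretory markers, 6 were called higher in RBCs, with sums of 1100 to 1195 in HBCs against 624728. Most of the HBC sums was Reg3g (1149 ± 53.8), and the largest in RBCs was Bpifa1 (439407). Ltf, which encodes lactoferrin, was called 6.59-fold higher in HBCs (119163 ± 1162 against 18086). Of 7 markers of dividing cells, 6 were called higher in HBCs, with a summed FPKM of 2555 to 2631 against 602. Whether these cells or cell division had a part in the results on lipid genes was not tested. The gene models of Srebf1 and Rai1, Acaca and Tada2a, Tm7sf2 and Vps51, Fdft1 and Ctsb, and Elovl1 and Cdc20 overlap in the RefSeq table (GRCm38.p6), and since the strand setting is unknown, reads of each pair may be mixed. In bulk RNA, fewer cells of a type and less RNA per cell cannot be told apart.

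Under the scaling used, the summed FPKM of the 40 lipid genes was almost the same in both kinds of cell. It was 23910 to 23979 in the HBC libraries and 23838 in the RBC library. Sums by role moved in both directions: the 10 sterol genes summed to 7816 to 8001 in HBCs and 4788 in RBCs. The sterol control genes summed to 3643 to 3711 and 5752. Calls fell on 12 of the 38 tested lipid genes (31.6%, beside 47.0% of all tested genes). RBCs had the higher level in 8 of them (21.1%, beside 34.2% of all tested genes) and HBCs in 4 (10.5%, beside 12.8%). Their median log2 change was 0.02, beside 0.45 over all tested genes. The median turned to -0.49 when library medians over all tested genes were set equal, where 5 genes were called higher in RBCs and 9 in HBCs. The RBC value lay outside the range of the HBC values for 35 of 38 genes, and 94.1% of all tested genes did so.

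**Figure D1:**
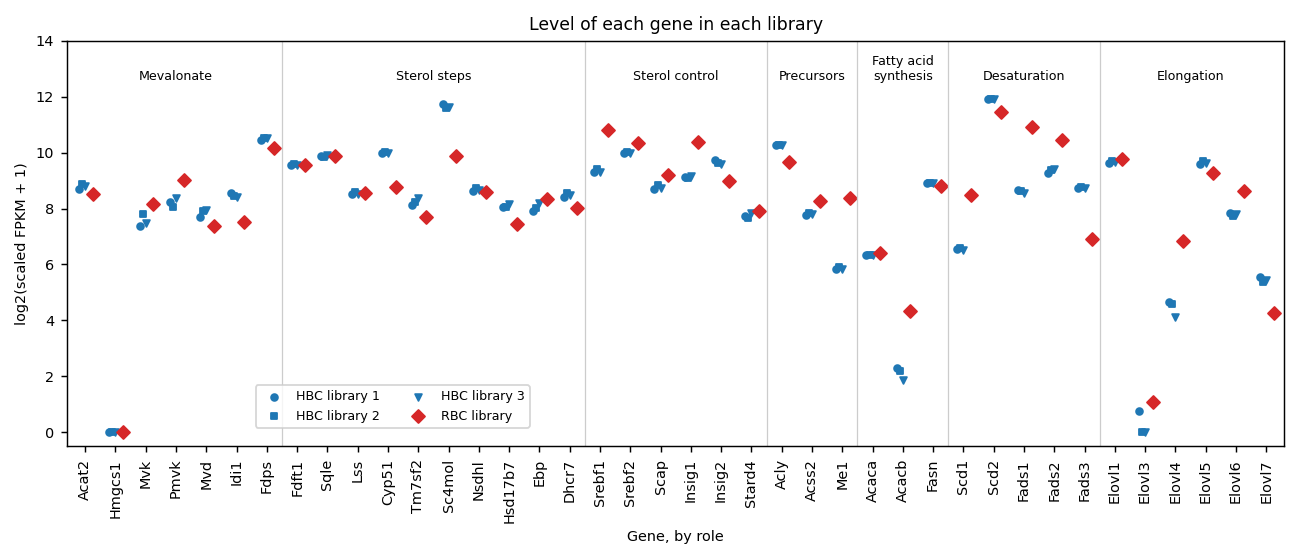
Level of each of the 40 genes in each library on a log2(scaled FPKM + 1) axis, ordered by role, with HBC libraries 1, 2 and 3 as blue circles, squares and triangles and the RBC library as a red diamond. The 3 blue points nearly coincide for most genes, while Sc4mol, Cyp51 and Fads3 sit lower and Srebf1, Me1, Scd1 and Fads1 higher in the RBC library.

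The HBC libraries agreed closely on these genes. Among the 37 lipid genes averaging at least 10 in HBCs, the median coefficient of variation was 3.86%. It was 4.96% for the 11704 tested genes above the same floor. The 2 sets were not matched for level, and the median HBC level of the tested lipid genes was 399. The tightest was Acly with 0.283%, and the widest were Elovl4 with 20.1% and Mvk with 16.1%. The most abundant transcripts in HBCs were Scd2 (3882 ± 18.0) and Sc4mol (3228 ± 167), above 98.4% and 98.0% of all listed genes. In the RBC library Scd2 (2823) stayed first, followed by Fads1 (1942) and Srebf1 (1776).

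None of the 6 tested mevalonate genes was called. This branch turns acetyl-CoA into the isoprenoid farnesyl diphosphate. Acat2, which joins acetyl-CoA units, was at 417, 464 and 451 in HBC libraries 1, 2 and 3 and at 368 in RBCs. Mevalonate kinase, Mvk, was at 167, 223 and 176 against 285, and phosphomevalonate kinase, Pmvk, at 297, 263 and 333 against 512, both above every HBC library. Mvd, which decarboxylates the product to isopentenyl diphosphate, was at 207, 238 and 247 against 166. The isomerase Idi1 came nearest to the 2-fold minimum (370.4, 352 and 344 against 184, log2 change -0.95, limma adjusted p = 0.00290). It passed under quantile normalization, with a log2 change of -1.24, and with all medians set equal, with -1.45. Fdps, which condenses these units, was the most abundant gene of the branch at 1448 ± 39.2 and 1138. Hmgcs1, a synthase of this branch, was listed at 0 in all 4 libraries. Since most cells use it, this may be a failed estimate and no level can be read from it. Some reads of this branch may be shared: 45.9% of the 50-base words of the Acat2 transcript also occur in Acat3, and 86.4% of those of Fdps and 21.3% of those of Idi1 occur in transcripts of other loci in GENCODE M21. Outside the list of 40, Ggps1, which uses the farnesyl product for protein prenylation, was 2.22-fold higher in HBCs (493 ± 31.6 against 222).

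From squalene to cholesterol, the first 3 enzymes stood at like levels in both groups and the called differences came in the middle. Of these 10 genes, 2 had a called difference, both with the higher level in HBCs. Squalene synthase Fdft1 was at 754, 762 and 746 in HBCs and 761 in RBCs. The squalene epoxidase Sqle, an oxygen-dependent control point, was at 934, 924 and 958 against 931. Lanosterol synthase Lss was at 362, 382 and 363 against 375. For these 3 consecutive enzymes the RBC value fell inside the HBC range, and the 95% intervals of the log2 change, which rest on the HBC spread, were -0.05 to 0.08, -0.11 to 0.08 and -0.13 to 0.18. They do not cover the choice of scaling: with all medians set equal the log2 changes of Fdft1, Sqle and Lss were -0.49, -0.52 and -0.48.

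The next demethylation steps held both called genes. The lanosterol demethylase Cyp51, a cytochrome P450, was at 1016, 1029.9 and 1017 in HBCs and 433 in RBCs, 2.36-fold higher in HBCs (log2 change -1.23 ± 0.01 SE, limma adjusted p = 0.000132). Sc4mol, now named Msmo1, is the sterol oxidase that acts on the methyl groups at carbon 4 of the ring. It was at 3417, 3103 and 3164 against 944, 3.42-fold higher in HBCs (log2 change -1.77 ± 0.07 SE, limma adjusted p = 0.00157). In both genes all 3 HBC libraries stood far above the RBC library, and the calls held under each of 13 alternatives. The enzymes that work with Sc4mol on the same methyl groups were less apart. The dehydrogenase Nsdhl was at 407 ± 17.4 and 384, and the ketoreductase Hsd17b7 at 273 ± 13.1 and 173. Tm7sf2, the sterol reductase that acts before them, was at 301 ± 25.4 and 204. The late enzymes were Ebp (264 ± 28.8 and 325), an isomerase, and Dhcr7 (356 ± 14.6 and 257), which makes cholesterol itself.

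**Figure D2:**
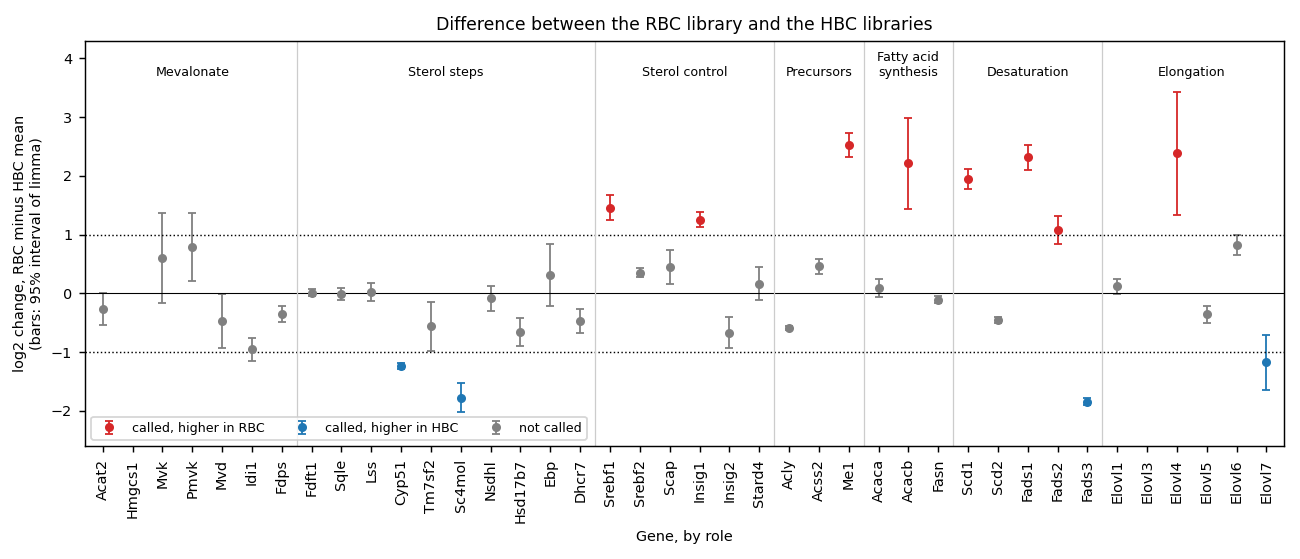
Log2 change of each tested gene (RBC minus HBC mean, scaled FPKM + 1), with 95% intervals from limma and dotted lines at 2-fold. Red points are the 8 genes called higher in RBCs and blue points the 4 called higher in HBCs, and the grey points between -0.95 and 0.83 were not called. Hmgcs1 and Elovl3 were not tested and have no point.

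Among the genes that control sterol synthesis, Srebf1 and Insig1 were higher in RBCs while their partners Srebf2 and Insig2 differed less or in the other direction. Srebf1, whose product favours fatty acid genes, was at 626, 678 and 635 in HBCs and 1776 in RBCs, 2.75-fold higher (log2 change 1.46 ± 0.06 SE, limma adjusted p = 0.00158). Srebf2, whose product favours cholesterol genes, was at 1022, 1042 and 1014 against 1310.3, above each HBC library but under 2-fold, and its log2 change of 0.35 turned to -0.15 with all medians set equal. The ratio of Srebf1 to Srebf2 within a library, which dividing a library by a factor does not alter, was 0.612, 0.650 and 0.626 in HBC libraries and 1.36 in RBCs. Srebf2 was thus the more abundant of the pair in each culture and Srebf1 in the RBC library.

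Insig1, a retention protein that is itself a target of SREBPs, was at 559.8, 543 and 571 in HBCs and 1332 in RBCs, 2.39-fold higher (log2 change 1.25 ± 0.04 SE, limma adjusted p = 0.000859). Insig2, which does the same task with less dependence on SREBPs, was at 853, 784 and 776 against 506 and was not called. The ratio of Insig1 to Insig2 was 0.656, 0.693 and 0.736 in HBC libraries and 2.63 in RBCs. Scap was at 414, 462 and 421 against 589.8, and Stard4, a carrier of cholesterol between membranes, at 214, 202 and 226 against 239. With all medians set equal, Srebf1 and Insig1 fell under the 2-fold minimum, with log2 changes of 0.95 and 0.75. Of the other genes tied to SREBP control, the protease Mbtps2, which cuts SREBPs in the Golgi, was 2.29-fold higher in HBCs (460 ± 11.9 against 201).

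Sequence upstream of the start was available for 32 of the 40 genes (42 promoters, RefSeq, build GRCm38.p6) and was searched over 250 bases on both strands. No entry was matched for Fads1, Scd1, Scd2, Elovl3, Stard4, Fdps, Fdft1 and Sqle. The sterol regulatory element was spelled TCACNCCAC, the E-box that SREBPs also bind CACGTG, and the boxes of their usual partner factors NF-Y and Sp1 CCAAT and GGGCGG, and none of these strings contains another. The sterol element occurred in 2.38% of the 42 promoters against 1.05% of all 32851 promoters, the E-box in 11.9% against 6.02%, CCAAT in 59.5% against 33.8% and GGGCGG in 71.4% against 32.7%. These shares are descriptions without a test, and a match is not a bound site. Insig1 and Srebf1 were chosen for display as control genes, and Fads3 for the most negative log2 change. Hmgcs1 was chosen because it held the only sterol element found. GGGCGG also occurs, on either strand, in the stretches of Insig1, Srebf1 and Fads3, and is left in lower case. Stretches of these 4 promoters are shown 5′ to 3′ on the gene's strand, with the match named below in capitals. They are chr5:28071286-28071341 on the plus strand with an E-box, chr11:60210472-60210526 on the minus strand and chr19:10041417-10041471 on the plus strand with CCAAT on either strand, and chr13:119690189-119690247 on the plus strand with the sterol element.
Insig1: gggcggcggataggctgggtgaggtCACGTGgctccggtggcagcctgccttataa
Srebf1: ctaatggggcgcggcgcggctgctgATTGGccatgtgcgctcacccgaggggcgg
Fads3: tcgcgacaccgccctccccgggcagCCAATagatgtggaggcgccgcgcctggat
Hmgcs1: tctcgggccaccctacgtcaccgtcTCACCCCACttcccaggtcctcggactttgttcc

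Of the genes that supply fatty acid synthesis, the malic enzyme stood out. Me1, which makes NADPH in the cytosol, was at 55.5, 58.6 and 56.1 in HBCs and 330.4 in RBCs, 5.82-fold higher (log2 change 2.52 ± 0.06 SE, limma adjusted p = 0.000561). This was the largest change among the 38 tested genes on the log2 scale used, and the call held under all 13 alternatives. Of the Me1 transcript, 26.5% of 50-base words also occur in transcripts of other loci. The citrate lyase Acly, the main source of cytosolic acetyl-CoA, was at 1222, 1221 and 1227 against 809.9, and Acss2, which makes acetyl-CoA from acetate, at 222 ± 5.14 against 306. Neither was called. Acly lay below every HBC library and Acss2 above every one.

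The enzymes that build the chain itself were not called, apart from the scarce Acacb. Acaca, the cytosolic carboxylase that makes malonyl-CoA for synthesis, was at 79.0, 79.6 and 79.8 in HBCs and 84.8 in RBCs (log2 change 0.09, 95% interval -0.07 to 0.25, which rests on the HBC spread). Its direction turned under quantile normalization, with a log2 change of -0.83. Fatty acid synthase, Fasn, was at 476, 484 and 484 against 448. Acacb, the carboxylase at the mitochondrial membrane whose product restrains fatty acid oxidation, was at 3.93, 3.61 and 2.66 against 19.3, 5.68-fold higher in RBCs (log2 change 2.22 ± 0.23 SE, limma adjusted p = 0.00759). Its level was low, and its direction turned under quantile normalization (log2 change -0.19). Of the Acaca transcript, 52.6% of 50-base words also occur in the transcript of another locus, Gm5182. Acaca was the major form in all 4 libraries, with 20.1, 22.1 and 30.0 times the FPKM of Acacb in the HBC libraries and 4.39 times in RBCs.

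Of the 5 desaturases, Scd1, Fads1 and Fads2 were called higher in RBCs, Fads3 higher in HBCs, and Scd2 was not called. Scd1, which introduces the first double bond of monounsaturated fatty acids, was at 93.0, 95.7 and 90.1 in HBCs and 361 in RBCs, 3.88-fold higher (log2 change 1.95 ± 0.05 SE, limma adjusted p = 0.000701). Its neighbour Scd2 carries out the same reaction and was at 3902, 3866 and 3878 against 2823, not called (log2 change -0.46). Scd2 made up 97.0% ± 0.206 (SD, n = 3) of the summed FPKM of the 4 mouse Scd genes in HBCs and 87.9% in RBCs, and Scd1 2.32% ± 0.0695 (SD, n = 3) and 11.2%. The ratio of Scd1 to Scd2 was 0.0238, 0.0247 and 0.0232 in HBC libraries and 0.128 in RBCs. Only 4.66% of the 50-base words of Scd1 and 4.01% of those of Scd2 occur in transcripts of other genes.

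The 3 Fads genes lie next to one another, and the outer pair were called in opposite directions. Fads1, the delta-5 desaturase of polyunsaturated fatty acids, was at 404, 394 and 371 in HBCs and 1942 in RBCs, 4.98-fold higher (log2 change 2.32 ± 0.06 SE, limma adjusted p = 0.000739). Fads2, the delta-6 desaturase, was at 621, 657 and 683 against 1383, 2.12-fold higher (log2 change 1.08 ± 0.07 SE, limma adjusted p = 0.00328). With all medians set equal Fads2 lost its call, with a log2 change of 0.58. Fads3, a relative that acts on sphingoid bases, was at 426, 432 and 425 against 119, 3.61-fold higher in HBCs (log2 change -1.84 ± 0.02 SE, limma adjusted p = 8.51e-05). In each of the 3 genes all HBC values lay on 1 side of the RBC value, below it for Fads1 and Fads2 and above it for Fads3, and the calls of Fads1 and Fads3 held under all 13 alternatives. Of the summed Fads FPKM, Fads1 took 26.5% ± 1.37 (SD, n = 3) in HBCs and 56.4% in RBCs, Fads2 44.4% ± 1.69 and 40.2%, and Fads3 29.1% ± 0.327 and 3.44%. The ratio of Fads1 to Fads3, added after the values were seen, was 0.947, 0.912 and 0.873 in HBC libraries and 16.4 in RBCs.

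**Figure D3:**
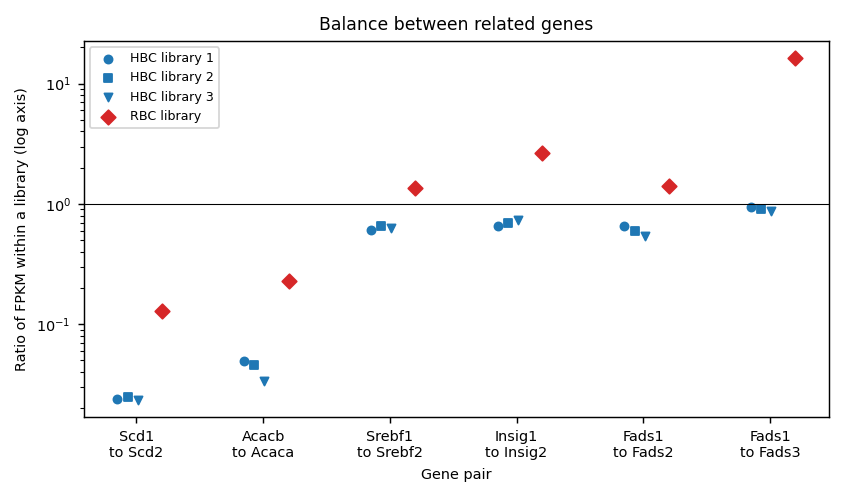
Ratio of FPKM between related genes within each library, on a log axis, for HBC libraries 1, 2 and 3 (blue) and the RBC library (red diamond). In each of the 6 pairs shown the RBC ratio lies above all 3 HBC ratios, from 0.128 for Scd1 to Scd2 up to 16.4 for Fads1 to Fads3. Acacb to Acaca is the inverse of the ratio given in the text, and Fads1 to Fads3 was added after the values were seen. The shared direction depends on which gene of a pair is divided by the other and is not a result.

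Of the 5 tested elongases, Elovl4 was called higher in RBCs and Elovl7 in HBCs. Elovl4, which makes the very long chains of skin barrier and retinal lipids, was at 24.4, 23.2 and 16.5 in HBCs and 114 in RBCs, 5.34-fold higher (log2 change 2.38 ± 0.31 SE, limma adjusted p = 0.0119). Without HBC library 2 its adjusted p from limma was 0.0563, in a range of 0.00618 to 0.0563 over the alternatives. Elovl7, which lengthens long saturated and unsaturated chains, was at 46.4, 39.95 and 42.0 against 18.4, 2.33-fold higher in HBCs (log2 change -1.17 ± 0.14 SE, limma adjusted p = 0.00965). It no longer passed when HBC library 3 was left out (limma adjusted p = 0.0522, range 0.000633 to 0.0522) and with a pseudocount of 10, where the log2 change was -0.89. Elovl6, which lengthens palmitate, the product of Fasn, to stearate, was at 227, 212 and 221 against 391, above each HBC library but not called (log2 change 0.83).

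The abundant elongases were less apart. Elovl1, which acts on saturated and monounsaturated very long chains, was at 803 ± 19.0 and 872, and Elovl5, which elongates polyunsaturated chains, at 799 ± 23.3 and 623. Of the summed FPKM of the 7 Elovl genes, Elovl1 took 42.6% ± 0.406 (SD, n = 3) in HBCs and 43.1% in RBCs, Elovl5 42.3% ± 0.536 and 30.8%, and Elovl6 11.7% ± 0.576 and 19.3%. Elovl3, an elongase of sebaceous glands and brown fat, was at 0.692, 0 and 0 in HBCs and 1.10 in RBCs. It did not reach the minimum level for testing.

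Markers of lipid-rich cells were read in the same libraries. Of 7 adipocyte markers, 5, among them Adipoq and Plin1, were listed at 0 in all 4 libraries, and the list summed to 3.12 in RBCs and to at most 10.6 in an HBC library. Of 7 sebocyte markers, Awat1 and Dgat2l6 were at 0 in all 4 libraries. Another 3 (Mc5r, Far2 and Cidea) were called higher in RBCs, and the list summed to 24.5 to 32.6 in HBCs and 133 in RBCs. Of 7 markers of Schwann cells and myelin, 4 were called higher in RBCs, with sums of 524 to 566 and 1077. Mbp (205 ± 6.30 and 285) and Cnp (311 ± 13.1 and 556), neither of them called, made up most of these sums. The part of these cells in the RBC values of Scd1, Elovl4 and the other called genes was not tested.

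Genes of neighbouring lipid pathways were read from 5 further lists, with 74 genes in all. Calls toward RBCs made up 24.3% of these and calls toward HBCs 13.5%, beside 34.2% and 12.8% of all tested genes, whose median log2 change was 0.45. The values for all tested genes include the low genes named above and are not matched for level. Of 15 other genes of sterol synthesis and SREBP control, 10 were not called, 3 were called higher in HBCs, among them Mbtps2 and Ggps1, and 2 were called higher in RBCs. The median log2 change of the list was -0.44. Mlxipl, the carbohydrate-responsive factor ChREBP, was among those higher in RBCs (2.44 ± 0.943 and 20.7). It stood near the bottom of the scale in HBCs and was not called under quantile normalization. It did not pass without HBC library 1 or without library 3 (limma adjusted p = 0.0658 and 0.0693, two-sided).

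Of 15 genes of cholesterol uptake, efflux and esterification, RBCs had the higher level in 5 called genes and HBCs in 1, and the median log2 change was 0.28. The share toward RBCs, 33.3%, was near the 34.2% of all tested genes, and the median lay below theirs. The sterol exporter Abcg1 was at 23.6, 23.4 and 25.5 in HBCs and 709 in RBCs, 29.3-fold higher (limma adjusted p = 0.000363). Nr1h3, the sterol-sensing receptor LXR alpha, was at 4.11 ± 0.519 and 49.9. Mylip, a ubiquitin ligase induced by sterols, was 5.60-fold higher in RBCs (769 against 137 ± 9.11). The other 2 were Abca1 and Lrp1, at 168.8 and 429 in RBCs. Scarb1, the HDL receptor, was 2.51-fold higher in HBCs (383 ± 15.4 against 153). Macrophages also express Abcg1, Nr1h3 and Cd36, and the leukocyte markers given above were higher in the same RBC library. The part of macrophages, endothelium or other cells in these values was not tested.

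**Figure D4:**
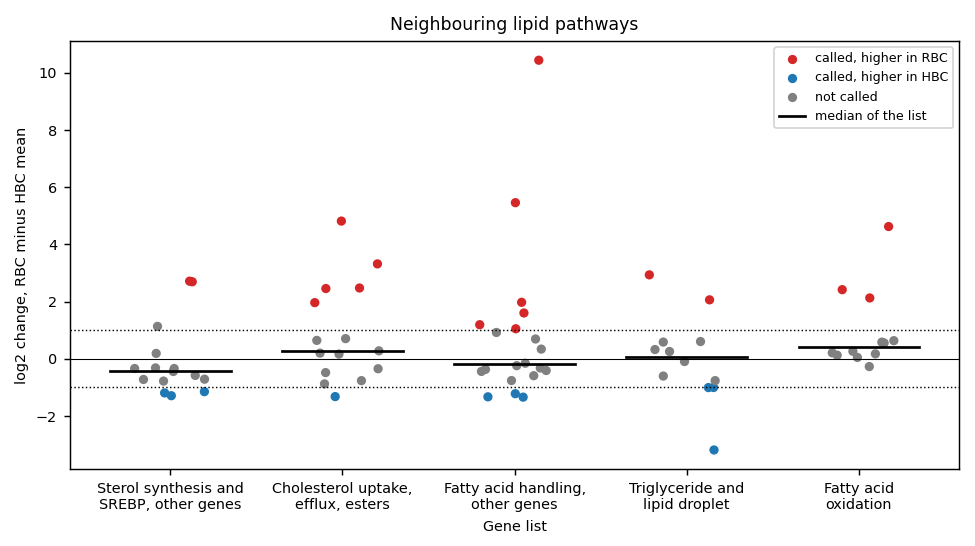
Log2 change (RBC minus HBC mean) of each gene in 5 lists of neighbouring lipid pathways, coloured by call, with the median of each list as a bar and dotted lines at 2-fold. Medians run from -0.44 for the other sterol genes to 0.41 for fatty acid oxidation. The highest point is Cd36 and the lowest Plin2.

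Among 20 other genes of fatty acid handling, 9 were called, 6 toward RBCs and 3 toward HBCs (median log2 change -0.20). The fatty acid importer Cd36 was barely detected in HBCs (1.09, 0 and 0.864) and was at 2187 in RBCs (limma adjusted p = 0.00248). The acyl-CoA synthetases differed among themselves: Acsl1 was 3.95-fold higher in RBCs (967 against 245 ± 9.57), Acsl6 was at 137 against 2.18 ± 0.633, and Acsl5 was 2.33-fold higher in HBCs (1550.2 ± 16.7 against 666). Hsd17b12, the ketoreductase that serves every ELOVL enzyme, was 2.53-fold higher in HBCs (3386 ± 120.0 against 1338), although it missed the 2-fold minimum under quantile normalization, by less than 0.01 on the log2 scale. Fabp5, an epidermal fatty acid carrier, was 2.52-fold higher in HBCs (876 ± 66.6 against 348), but did not pass with values as deposited (limma adjusted p = 0.0531).

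The largest difference toward HBCs among these lists was in Plin2, the coat protein of lipid droplets, at 3889, 3857 and 3758 in HBCs and 421 in RBCs, 9.12-fold higher in HBCs (log2 change -3.19 ± 0.03 SE, limma adjusted p = 6.37e-05). Of 12 triglyceride and droplet genes, 5 were called, with Plin2, Agpat1 and Dgat2 higher in HBCs. Agpat1 and Dgat2, enzymes of triglyceride assembly, were each 2.01-fold higher in HBCs, and neither call held with values as deposited (limma adjusted p = 0.0605 and 0.0757) or without HBC library 2 (log2 changes -0.97 and -0.98). Higher in RBCs were the lipase Mgll (292 against 37.5 ± 4.89) and the phosphatidate phosphatase Lpin1 (193 against 45.4 ± 1.60). Of 12 oxidation genes, 3 were called, each higher in RBCs, a smaller share than the 34.2% of all tested genes. The list's median log2 change of 0.41 was near the 0.45 of all tested genes. Cpt1a, the carnitine transferase that admits fatty acids to mitochondria, was 4.39-fold higher in RBCs (773 against 176 ± 6.14). The dehydrogenase Acadm was 5.36-fold higher (1460.4 against 273 ± 19.0), and Ppara, a nuclear receptor that drives oxidation, was at 132 against 4.41 ± 0.519.

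**Figure D5:**
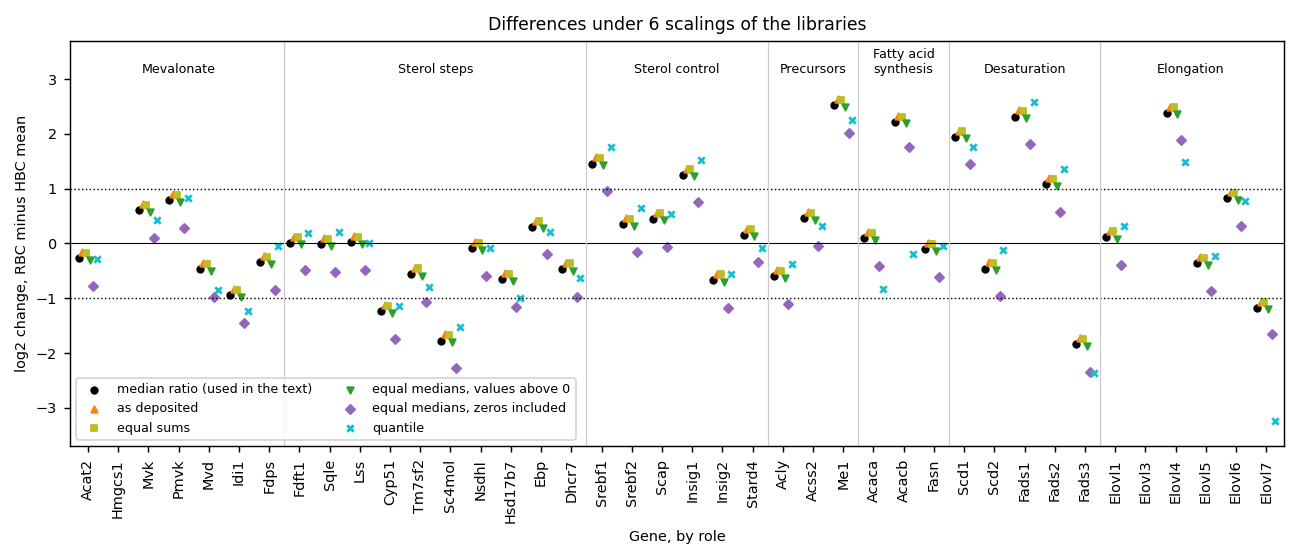
Log2 change of each lipid gene under 6 ways of scaling the libraries, with dotted lines at 2-fold. Setting the medians of all tested genes equal, zeros included (purple diamonds), lowers every gene together, whereas Sc4mol, Cyp51, Fads3 and Elovl7 stay below -1 and Me1, Scd1, Fads1 and Elovl4 stay above 1 under all 6.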

How the data were processed

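RNA was sequenced from 3 HBC cultures and 1 sorted RBC sample, extracted with the Zymo quick-RNA microprep kit per the labels' protocols. Cuffnorm, Cufflinks 2.2.1, STAR and mm9 appear, with no role stated, per the submitters' processing notes. Which annotation, strandedness and filters were used is not stated there. The authors deposited 1 FPKM value per gene symbol and library. Among genes below 4 in all libraries, 12.4% to 26% of those seen in 2 libraries gave ratios within 2% of 1, so depth was taken not to be divided out, and counting intervals cannot be given. A median-ratio factor, taken on 11134 genes with every value at 10 or above, was divided out (0.843, 1.05 and 1.07 in the cultures and 1.06 in RBCs). Genes with a mean of both group levels of at least 1 (16440 of 23281) were fitted as log2(value + 1) with limma 3.58.1 in R 4.3.3 (mean-variance trend, two-sided, 2 residual degrees of freedom). The procedure was tested on simulated data in which the RBC library was given the spread of the HBC libraries. Such data cannot show whether the real RBC library varies alike. Of the tested genes, 1256 were at 0 in all HBC libraries, where no spread exists.

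The 40 genes and all lists were chosen with earlier results of these data known. All 40 are named. Of 74 genes in the 5 other lists (71 matched by symbol, 3 by an older one), up to 3 called genes per direction with the largest change are named, except genes that are not reported here. Others (Abca1, Lrp1) were named after their values were seen. Alternatives were 5 other scalings, pseudocounts of 0.1 and 10, no minimum or 5, no variance trend and leaving out each HBC library. Transcript words were compared in GENCODE M21. Gene coordinates are not given, since the reference is not mm9.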

Additional observations from a re-analysis of the deposited data

How the results depend on the processing

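No paired analysis was possible because the RBC group has 1 library and shares a single replicate number with the cultures. Of the 12 called lipid genes, Cyp51, Sc4mol, Fads1, Fads3, Me1 and Scd1 kept their call under all 13 alternatives. Equal medians over all tested genes, zeros included, was chosen after seeing the data. It gave 5 lipid genes called higher in RBCs and 9 in HBCs in place of 8 and 4, a median log2 change of -0.49 for the lipid genes and -0.044 for all genes, and 3781 genes called higher in HBCs. It ended the calls of Srebf1, Insig1 and Fads2, and Idi1, Tm7sf2, Hsd17b7, Insig2 and Acly passed toward HBCs. The log2 changes it reversed were those of Fdft1 (-0.49), Lss (-0.48), Ebp (-0.20), Srebf2 (-0.15), Scap (-0.056), Stard4 (-0.34), Acss2 (-0.039), Acaca (-0.41) and Elovl1 (-0.39). Quantile normalization gave medians of -0.047 for the lipid genes and -0.10 for all genes, 3155 genes called toward RBCs and 3663 toward HBCs (5621 and 2105 in the report), and reversed Sqle (0.20), Stard4 (-0.085), Acaca (-0.83) and Acacb (-0.19). RBCs had the higher level in 72.8% of all calls, in 54.3% with those equal medians and in 46.3% with quantile normalization. Values as deposited gave medians of 0.13 for the lipid genes and 0.56 for all genes, and reversed Sqle (0.10), Nsdhl (0.028) and Fasn (0.0073). Equal sums gave 0.12 and 0.55, with Sqle at 0.089 and Nsdhl at 0.016. Equal medians of values above 0 gave -0.011 for the lipid genes, -0.016 for Fdft1 and -0.0052 for Lss. The median of all genes was 0.31 with a pseudocount of 10 and 0.28 with a minimum of 5. Leaving out 1 HBC library gave 7 to 8 and 3 to 4 called lipid genes, and log2 changes of -0.023 to 0.0031 for Sqle. Among the neighbouring lists, the other sterol genes called toward RBCs, 2 in the report, numbered 0 with quantile normalization, 1 with a pseudocount of 10 and 0 to 3 without an HBC library. Triglyceride genes called toward HBCs, 3 in the report, numbered 1 as deposited, with equal sums, with a pseudocount of 10 or without HBC library 2, and 5 with medians set equal, zeros included. The cause of these shifts was not tested.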
